A study of Homo sapiens with 45 samples.

Results

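The comparison described here sets Jurkat cells that carried guide RNAs against both ARID1A and ARID1B (labelled gARID1A_1B) beside Jurkat cells that carried a guide against AAVS1 (labelled gAAVS1). Its 6 libraries, 3 per group, were taken by their labels from the 45 RNA-seq libraries of the series, of which 27 are Jurkat in 9 groups. Jurkat is an established human T-cell acute lymphoblastic leukaemia (T-ALL) line. Cells of both groups expressed Cas9, received guides by lentivirus and had puromycin for 4 days. Polyadenylated RNA was collected 10 days after transduction. AAVS1 is a site inside the gene PPP1R12C that is widely cut as a control, so control cells were also edited. The cells were selected transduced cells and no clone is named, so a library can mix edited and unedited alleles. Each library is labelled a biological replicate. 5 further Jurkat groups enter as comparators, namely gARID1A (guide against ARID1A, otherwise treated alike), gSMARCA4 and gSMARCA4_A2 (guides against SMARCA4 alone or with SMARCA2, otherwise alike), and cells given 1 uM BRM014 for 8 days with their own 0.01% DMSO control. BRM014 is an inhibitor of both of these ATPases.

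ARID1A and ARID1B are alternative, mutually exclusive subunits of cBAF, the canonical form of the SWI/SNF family of chromatin remodellers. cBAF uses the ATPase SMARCA4 or SMARCA2 to slide or evict nucleosomes and keeps many enhancers accessible to transcription factors. Cells that lose ARID1A often depend on ARID1B, since without either subunit cBAF does not assemble. In T-cell development the complex acts together with factors such as RUNX1, TCF7 and IKZF1, and Jurkat cells are known for an active TAL1 programme.

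The unit throughout is TPM, transcripts per 1e+06, which is scaled for gene length. A log2 difference is the difference of group means of log2(TPM + 1), given ± SE, and it understates the change of genes near or below 1 TPM. A gene was called when limma's Benjamini-Hochberg adjusted p was under 0.05 over the 17936 genes tested. Libraries held 29.7 to 47.9 M reads on genes in gAAVS1 and 40.4 to 45.2 M in gARID1A_1B, and replicate 1 of gAAVS1 was the shallowest. The share of TPM on mitochondrial mRNAs was 22.2 to 22.8% for gAAVS1 libraries and 22.7 to 24.9% for gARID1A_1B libraries. The 9 T-cell markers in the table were tested in full and summed to 1631 to 1693 TPM in gAAVS1 and 1677 to 1748 TPM in gARID1A_1B. Of markers of other cells, 6 of 10 B-cell, 11 of 14 myeloid, 9 of 14 erythroid and megakaryocyte and 8 of 12 epithelial and fibroblast genes were under 0.5 TPM in all 6 libraries. Haemoglobin genes HBB, HBG1 and HBG2, the B-cell gene MS4A1 and the myeloid genes S100A8 and FCGR3A stood at 0. Of the same lists, HBA1 (2.30 ± 0.482 and 2.23 ± 1.14 TPM in gAAVS1 and gARID1A_1B) and HBA2 were not called different, the lysosomal gene CD68 fell from 12.0 ± 0.538 to 8.17 ± 0.941 TPM, and TNFRSF13C, the BAFF receptor, rose from 6.36 ± 0.514 to 12.2 ± 1.30 TPM (SD, n = 3). The epithelial and fibroblast list, which includes VIM, a gene T cells express too, summed to 541.4 to 571.6 TPM in gAAVS1 and 401.2 to 442.7 TPM in gARID1A_1B; the part of these markers in the results was not tested. Fewer cells of a kind and less RNA per cell cannot be told apart in such bulk libraries.

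ARID1B mRNA fell in the cells labelled with both guides, and ARID1A mRNA did not. ARID1B (chromosome 6, 156776026 to 157210779, hg38) stood at 23.2, 22.7 and 22.2 TPM in the 3 gAAVS1 libraries and at 12.9, 11.8 and 10.9 TPM in gARID1A_1B, a log2 difference of -0.88 ± 0.06 (limma, adjusted p = 5.48e-11). ARID1A (chromosome 1, 26696015 to 26782104) stood at 93.8, 95.1 and 94.2 TPM in gAAVS1, at 106, 102 and 95.9 TPM in gARID1A_1B (0.10 ± 0.05, limma adjusted p = 0.0965) and at 79.2, 85.0 and 85.0 TPM in gARID1A. All 3 gARID1A_1B libraries were above all 3 gAAVS1 libraries for ARID1A, a difference that missed the threshold here but was called at 0.13 after median-ratio rescaling or with mitochondrial genes left out, at 0.15 by limma-voom and at 0.14 without replicate 3 of gARID1A_1B. For ARID1B they were all far below. A whole-gene level does not read the edited bases, and protein was not measured, so ARID1A mRNA leaves that target unchecked. Of 20 cBAF subunit genes tested, ARID1A and ARID1B included, 3 rose and 7 fell, ARID1B among them, with a median of -0.04. Over all genes tested, 17% rose and 23.1% fell. The count of cBAF genes that fell was 4 without replicate 1 of gAAVS1, without replicate 3 of gARID1A_1B, or by limma-voom, where 5 rose. DPF3, an accessory subunit that reads acetylated histones, fell from 6.09 ± 0.411 to 2.59 ± 0.370 TPM (SD, n = 3; -0.99 ± 0.10), and BCL7A fell by 0.53. SMARCA2 rose from 21.8 ± 0.931 to 30.9 ± 0.564 TPM (0.49 ± 0.07), and SMARCA4 fell by 0.16, a call lost in 8 of 15 alternatives. In the related complexes PBAF and ncBAF, 2 of 7 genes rose, with BICRAL at 0.50, and 3 fell, with ARID2, the PBAF counterpart of ARID1A, at -0.41.

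**Figure D1:**
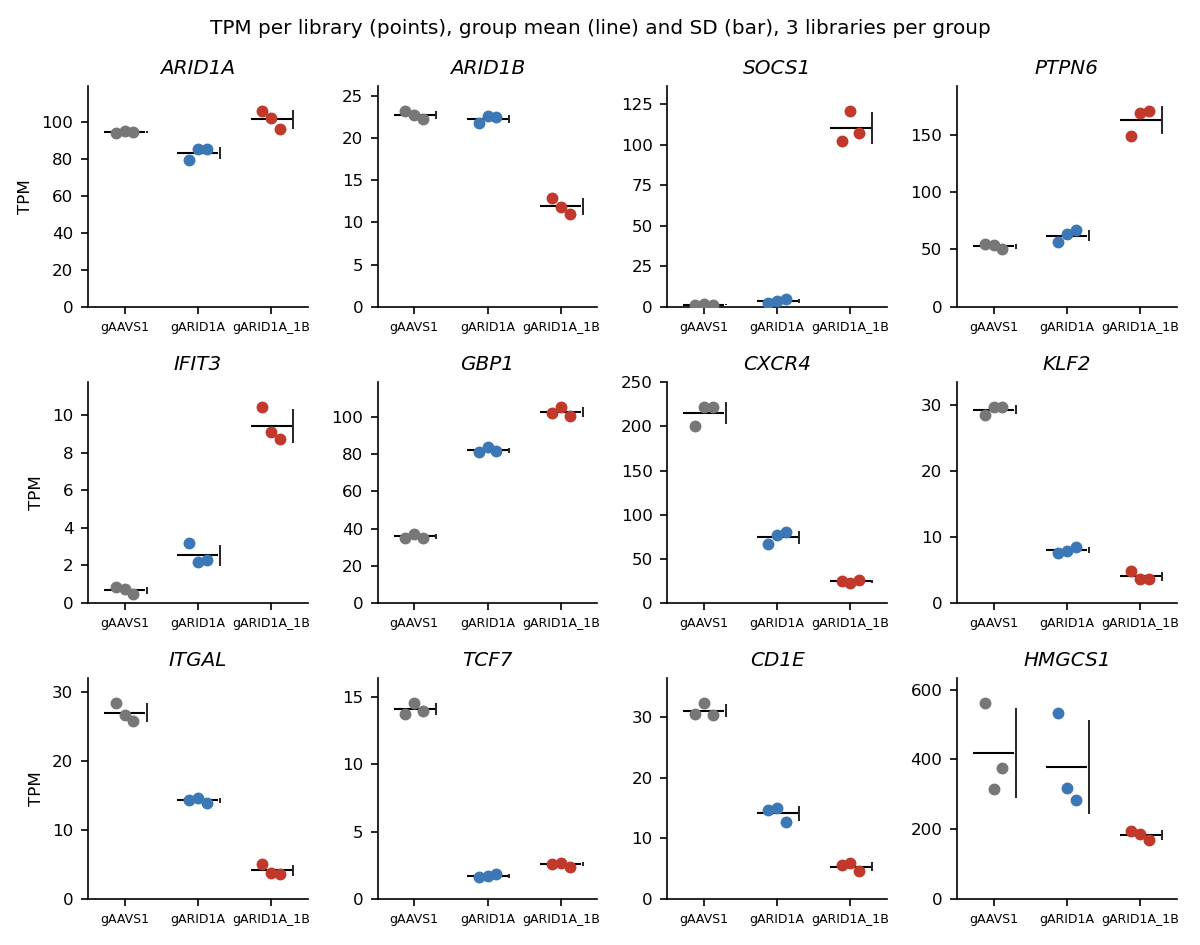
TPM of 12 genes in each library (points) of gAAVS1, gARID1A and gARID1A_1B, with the group mean (line) and SD (bar), 3 libraries per group, each axis starting at 0. ARID1B is lower only in gARID1A_1B among these 3 groups, SOCS1 is far higher in gARID1A_1B than in the other groups, and CXCR4, ITGAL and CD1E step down from gAAVS1 to gARID1A to gARID1A_1B. HMGCS1 has 1 high library in both gAAVS1 and gARID1A.

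In all, 3046 genes (17% of those tested) rose and 4136 (23.1%) fell, with a median over all genes of -0.03. Each list count against gAAVS1 given below is to be read beside these 2 shares. By limma-voom on reads recovered from TPM the split turned to 4151 higher and 3615 lower, and rescaling the libraries by their median ratio gave 3646 and 3766. The excess of lower calls was thus nearly gone after rescaling and turned by limma-voom, which also changes the model and its input, while no gene called in both fits changed sign under any alternative. All 3 gARID1A_1B libraries lay above all 3 gAAVS1 libraries in 23.4% of genes and below them in 30.3%. Most changes were small: 153 genes rose and 241 fell by at least 2-fold. Of these, 109 and 163 were annotated as protein coding and 17 and 48 as lncRNA. No gene under 0.5 TPM in every gAAVS1 library reached 5 TPM in every gARID1A_1B library. In the opposite direction only the long non-coding RNA LINC00861 passed, at 6.13, 7.92 and 6.64 TPM in gAAVS1 and 0.379, 0.468 and 0.301 TPM in gARID1A_1B.

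**Figure D2:**
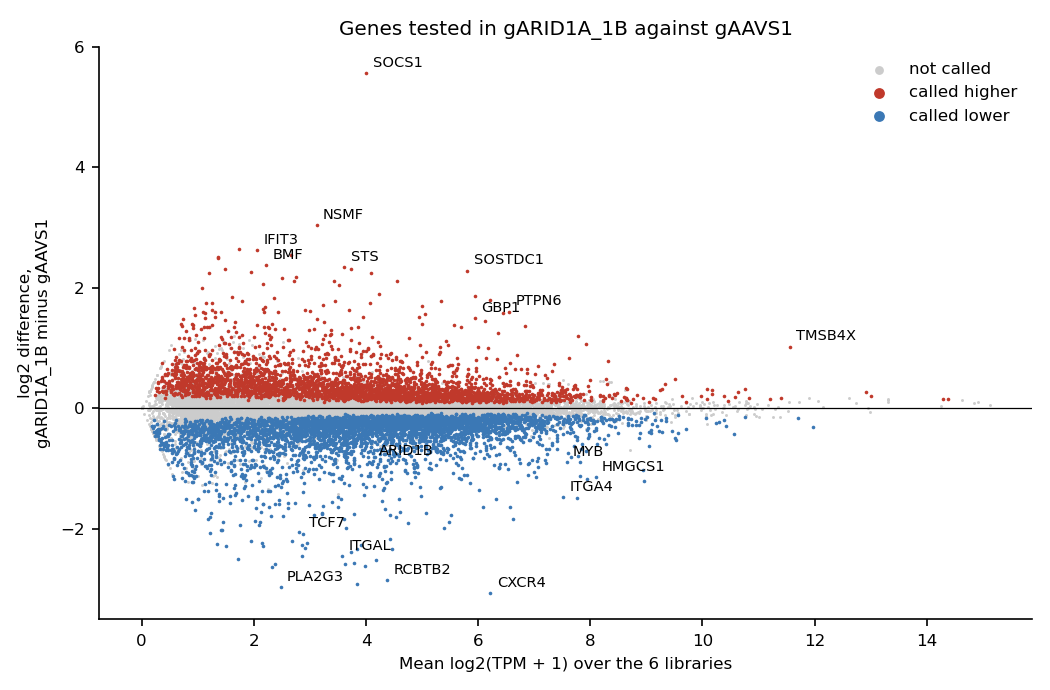
Log2 difference, gARID1A_1B minus gAAVS1, against the mean log2(TPM + 1) over the 6 libraries, for each of the 17936 genes tested. Red points were called higher and blue points lower at an adjusted p under 0.05, and SOCS1 at 5.57 stands alone at the top.

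SOCS1 showed the largest rise of any gene. SOCS1 (chromosome 16, 11254417 to 11256204), which binds JAK kinases and shuts off interferon and cytokine signalling, stood at 0.990, 1.72 and 1.36 TPM in gAAVS1 and at 102, 121 and 107 TPM in gARID1A_1B (5.57 ± 0.22, limma adjusted p = 7.63e-14). The lowest gARID1A_1B library was far above the highest gAAVS1 library. The list of brakes on cytokine signalling, SOCS1 included, was mixed, with 7 of 20 genes higher, 4 lower and a median of -0.03, against -0.03 over all genes. PTPN6 (SHP-1), a phosphatase that dampens antigen and cytokine receptor signals, was at 54.7, 53.6 and 50.1 TPM in gAAVS1 and 149, 168 and 171 TPM in gARID1A_1B (1.60 ± 0.14, limma adjusted p = 1.57e-08). SOCS2 (1.09) and SOCS5 (0.48) also rose, and their groups did not overlap. CISH, a STAT5 target and feedback inhibitor, fell by 0.41, and SPRED1, an inhibitor of RAS signalling, by 0.84.

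Receptor and kinase genes upstream of these brakes moved both ways. Of 23 tested genes for cytokine receptors, JAKs and STATs, 6 rose and 9 fell, and 9 and 9 by limma-voom. In the fit reported, 17% of all genes rose and 23.1% fell. IL7R, the receptor chain that supports early T cells, was at 3.84, 4.99 and 4.00 TPM in gAAVS1 and 1.22, 1.56 and 1.38 TPM in gARID1A_1B (-1.14 ± 0.10, limma adjusted p = 5.06e-09). IL9R fell by 1.33, and IL2RG, the common gamma chain shared by several interleukin receptors, from 311 ± 9.55 to 189.7 ± 3.67 TPM (-0.71). JAK3, the kinase bound to the gamma chain, fell by 0.87, and IFNAR2, a chain of the type I interferon receptor, by 0.86.

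Interferon-stimulated genes rose more often than they fell. Of 60 listed genes 52 were tested, 26 rose and 10 fell, with a median of 0.18, beside 17% higher and 23.1% lower over all genes. IFIT3, an antiviral protein that partners IFIT1 and IFIT2, was at 0.823, 0.750 and 0.476 TPM in gAAVS1 and 10.5, 9.08 and 8.71 TPM in gARID1A_1B (2.63 ± 0.10, limma adjusted p = 9.92e-15). GBP1, an interferon-induced guanylate-binding protein, was at 35.2, 37.1 and 35.0 TPM and 102, 106 and 101 TPM (1.50 ± 0.12, limma adjusted p = 1.66e-09). IFIT2 (1.32), the antiproliferative SAMD9L (1.23), IFIT1 (0.94) and the transcription factor IRF1 (0.88) rose as well. Expression stayed modest for most of them, at 8.18 ± 0.280 TPM for IFIT2 and 14.8 ± 0.499 TPM for SAMD9L in gARID1A_1B (SD, n = 3). IFI44 went down, from 4.83, 4.87 and 4.47 to 2.13, 1.71 and 2.09 TPM (-0.94), so the list did not move as 1 block. Genes of MHC class I antigen presentation rose in 10 of 20 and fell in 4 (median 0.15), and the count that fell was 2 in 9 of 15 alternatives. Those that rose included HLA-E (0.81), a non-classical class I molecule seen by NK receptors, the proteasome activator PSME2 (0.65, 79.7 ± 1.90 to 125 ± 1.48 TPM), the immunoproteasome subunits PSMB9 (0.63) and PSMB10 (0.49), and the peptide transporter TAP2 (0.58). This list had moved alike in gARID1A, where 10 of the 20 rose and 2 fell against the same gAAVS1 libraries (median 0.21).

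The promoters of 4 of the genes that rose are shown because they hold the interferon-stimulated response element (ISRE), searched on both strands as GAAA, any 2 bases and GAAA. Each run is the 250 bases before the RefSeq transcription start (GRCh38.p14), 5′ to 3′ on the gene's strand, with ISRE matches in capitals (read as TTTC, any 2 bases and TTTC where the match is on the other strand).
IFIT1 (chr10:89392373-89392622, plus strand): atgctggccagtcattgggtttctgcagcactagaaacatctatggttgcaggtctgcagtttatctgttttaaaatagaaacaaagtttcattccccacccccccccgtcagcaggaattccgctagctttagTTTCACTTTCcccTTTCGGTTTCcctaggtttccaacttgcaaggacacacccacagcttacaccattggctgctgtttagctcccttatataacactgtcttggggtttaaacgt
IFIT3 (chr10:89327747-89327996, plus strand): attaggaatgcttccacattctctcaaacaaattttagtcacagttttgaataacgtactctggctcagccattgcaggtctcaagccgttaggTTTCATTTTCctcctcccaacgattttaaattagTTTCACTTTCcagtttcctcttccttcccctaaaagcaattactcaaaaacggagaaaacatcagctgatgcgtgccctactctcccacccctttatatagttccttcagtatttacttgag
GBP1 (chr1:89065209-89065458, minus strand): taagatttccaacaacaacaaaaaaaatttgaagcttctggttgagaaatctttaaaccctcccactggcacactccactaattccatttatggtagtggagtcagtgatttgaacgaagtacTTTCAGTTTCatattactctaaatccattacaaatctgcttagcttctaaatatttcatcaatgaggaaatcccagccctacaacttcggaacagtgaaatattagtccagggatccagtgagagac
SOCS1 (chr16:11256205-11256454, minus strand): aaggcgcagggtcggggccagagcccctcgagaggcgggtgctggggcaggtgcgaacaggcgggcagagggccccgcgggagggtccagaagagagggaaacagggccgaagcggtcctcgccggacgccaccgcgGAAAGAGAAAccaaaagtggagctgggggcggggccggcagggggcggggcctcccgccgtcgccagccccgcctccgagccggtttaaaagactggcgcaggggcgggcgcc
IFIT1 and IFIT3 each hold 2 matches and GBP1 and SOCS1 hold 1 each. The first base of the match lies 116 and 103 bases before the start in IFIT1, 156 and 122 in IFIT3, 127 in GBP1 and 113 in SOCS1. In windows from 250 bases before to 50 after the start, 354 of the 12165 tested genes with a RefSeq promoter (2.91%) held a match. Among interferon-stimulated genes the share was 28 of 45 (62.2%), at 14 of 23 (60.9%) for those called higher and 7 of 9 (77.8%) for those called lower. Of all genes called at least 2-fold higher, 6.9% held it, and of those at least 2-fold lower, 2.58%.

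Of the largest rises, SOCS1 and IFIT3 are given above, and the others were not interferon genes. NSMF, a messenger from synapse to nucleus in neurons, was at 2.25, 1.82 and 2.06 TPM in gAAVS1 and 24.6, 24.6 and 22.7 TPM in gARID1A_1B (3.04 ± 0.13, limma adjusted p = 7.63e-14). FBP1, the gluconeogenic fructose bisphosphatase, went from 0.102, 0.0749 and 0.0614 to 4.76, 5.07 and 5.53 TPM (2.50 ± 0.09, limma adjusted p = 9.92e-15). BMF, a pro-apoptotic BH3-only protein, was at 1.20, 1.07 and 0.867 TPM and 8.87, 10.1 and 9.83 TPM (2.38 ± 0.10, limma adjusted p = 4.33e-14). STS, the steroid sulfatase, rose by 2.34, and NINJ2, an adhesion protein, by 2.31. SOSTDC1, a secreted antagonist of BMP and WNT signals, stood out for its level, at 27.8, 24.3 and 21.4 TPM in gAAVS1 and 127, 125 and 117 TPM in gARID1A_1B (2.29 ± 0.11). EEF1A2, the elongation factor isoform of muscle and neurons (2.27), SHISA2 (2.25) and the glutamate transporter SLC1A3 (2.18) completed the set. Libraries of gARID1A_1B and gAAVS1 that did not overlap were a condition for naming these rises, so that is no separate result.

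Chemokine and homing genes fell more often than they rose, and CXCR4 showed the deepest fall of any gene. CXCR4, the receptor for CXCL12 that keeps T-ALL cells in the marrow, was at 201, 223 and 222 TPM in gAAVS1 and 25.3, 22.8 and 26.2 TPM in gARID1A_1B (-3.07 ± 0.11, limma adjusted p = 9.92e-15). ITGAL, the alpha chain of the integrin LFA-1, went from 28.5, 26.7 and 25.8 to 5.05, 3.72 and 3.65 TPM (-2.46 ± 0.12). Groups without overlap were a condition for naming the largest falls, CXCR4 and ITGAL among them. ITGA4 fell by 1.47, and SELPLG, the ligand of P-selectin, fell from 77.9 ± 6.50 to 35.4 ± 2.76 TPM (-1.12). KLF2, a transcription factor that drives S1PR1 in resting T cells, was at 28.4, 29.6 and 29.7 TPM and 4.83, 3.64 and 3.68 TPM (-2.59 ± 0.12, limma adjusted p = 3.55e-13). S1PR1 itself was not called (0.05 ± 0.10, limma adjusted p = 0.722). Of 24 tested homing genes 14 fell and 2 rose, with a median of -0.53. CCR4, a receptor of skin-homing and Th2 cells, rose from 5.53, 3.60 and 3.59 to 26.4, 20.6 and 17.9 TPM (2.12 ± 0.32, limma adjusted p = 2.01e-05).

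Other deep decreases included PLA2G3, a secreted phospholipase, at 23.5, 10.0 and 13.1 TPM in gAAVS1 and 0.991, 1.02 and 0.969 TPM in gARID1A_1B (-2.97 ± 0.31). The gAAVS1 libraries of PLA2G3 were themselves spread, with replicate 1 highest. RCBTB2 was at 56.7, 58.9 and 49.8 TPM and 6.69, 7.04 and 6.54 TPM (-2.85 ± 0.08, limma adjusted p = 3.72e-16), the lowest adjusted p of these decreases. FXYD2, a regulator of the sodium pump, fell by 2.63, and the readthrough gene FXYD6-FXYD2 by 2.58; the 2 share exons, so their reads cannot be told apart. PI16, a peptidase inhibitor, fell from 42.6 ± 6.43 to 6.53 ± 0.473 TPM (-2.53). Some B-lineage genes expressed in these T cells fell too. CD79A, a signalling chain of the B-cell receptor, went from 11.7, 11.0 and 12.0 to 1.11, 0.657 and 1.35 TPM (-2.64 ± 0.15), and MZB1, an endoplasmic reticulum co-chaperone, from 182, 184 and 193 to 54.6, 50.5 and 48.5 TPM (-1.85 ± 0.07). CD72 fell by 0.97, while CD79B, the partner of CD79A, rose by 0.62. In that list 8 of 18 genes were tested, 1 rose and 3 fell.

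T cell receptor signalling genes fell more often than they rose, at 21 lower and 6 higher of 35 (median -0.26). TRAT1, an adaptor that stabilises the receptor, was at 23.2, 26.1 and 24.4 TPM in gAAVS1 and 8.87, 8.43 and 8.02 TPM in gARID1A_1B (-1.44 ± 0.09, limma adjusted p = 4.2e-11). UBASH3A, a negative regulator of receptor signalling, fell by 1.12 and the adaptor SASH3 by 0.92. The CD3 chains split. CD3G rose from 105 ± 4.94 to 170.1 ± 5.15 TPM (0.69) and CD3D by 0.33, while CD3E fell from 648 ± 9.81 to 527 ± 11.5 TPM (-0.30, limma adjusted p = 6.64e-06) and CD247, the zeta chain, by 0.21. GRAP2, an adaptor that binds SLP-76, rose by 0.83, and LCK, the kinase that starts the signal, fell by 0.34. Among T cell surface molecules 10 of 23 fell and 6 rose. CD48, a ligand of CD2 family receptors, fell from 16.2, 15.1 and 13.9 to 2.16, 2.42 and 2.39 TPM (-2.27 ± 0.16), CD40LG by 1.49, and CD38 and SLAMF6 rose by 1.52 and 1.38.

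Genes of the cortical thymocyte stage fell in 8 of 12 tested and rose in 2 (median -0.52). CD1E, a lipid-antigen molecule of cortical thymocytes, was at 30.5, 32.5 and 30.5 TPM in gAAVS1 and 5.58, 5.92 and 4.55 TPM in gARID1A_1B (-2.35 ± 0.16, limma adjusted p = 2.2e-10), and CD1D went from 343, 377 and 379 to 159, 165 and 161 TPM (-1.17 ± 0.07). RAG2, which cuts antigen receptor genes, fell by 0.82. DNTT, the polymerase that adds bases at receptor joints, rose from 23.9, 25.0 and 21.2 to 45.0, 47.8 and 43.3 TPM (0.93 ± 0.22, limma adjusted p = 0.00227), and CD4 rose from 1.73 ± 0.171 to 8.76 ± 0.648 TPM (1.84 ± 0.12).

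T lineage transcription factors split, with 9 of 25 higher and 11 lower. Next to KLF2, the Ikaros family member IKZF2 fell from 30.8, 31.1 and 26.4 to 5.17, 4.77 and 4.51 TPM (-2.39 ± 0.12) and IKZF3 by 1.52. TCF7, which sets T-lineage identity, was at 13.7, 14.6 and 13.9 TPM in gAAVS1 and 2.61, 2.68 and 2.40 TPM in gARID1A_1B (-2.08 ± 0.08, limma adjusted p = 1.1e-14). ID3, an inhibitor of E proteins, rose from 166 ± 13.0 to 349.8 ± 12.3 TPM (1.07). Of the TAL1 circuit, MYB fell from 278, 252 and 250.2 to 147, 139 and 131 TPM (-0.90 ± 0.09, limma adjusted p = 1.21e-07). TAL1 (-0.07, adjusted p = 0.454), RUNX1 (-0.04, adjusted p = 0.736) and GATA3 (0.27, adjusted p = 0.101) were not called. LMO1, a bridging factor of the TAL1 complex, fell by 1.31, and LYL1, a relative of TAL1, rose by 0.58. HHEX rose from 0.249, 0.0733 and 0.180 to 2.05, 2.13 and 1.91 TPM (1.38), and RUNX3 by 0.85.

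Genes of the NOTCH pathway did not move as 1 group either. NOTCH1 was at 22.5, 23.5 and 23.3 TPM in gAAVS1 and 25.1, 22.4 and 18.8 TPM in gARID1A_1B, groups that overlapped (-0.07 ± 0.09, limma adjusted p = 0.579). NOTCH3 fell from 16.9, 19.5 and 20.3 to 6.75, 5.85 and 5.36 TPM (-1.51 ± 0.17) and the target DTX1 from 46.8, 52.9 and 45.8 to 10.1, 8.36 and 8.00 TPM (-2.34 ± 0.11). CR2 fell by 1.76. NRARP, a feedback inhibitor of NOTCH, rose from 1.59, 2.25 and 1.71 to 6.49, 6.43 and 5.84 TPM (1.35 ± 0.11), and the repressor HEY1 by 1.34. Of 18 tested genes 5 rose and 8 fell, beside 17% higher and 23.1% lower over all genes.

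**Figure D3:**
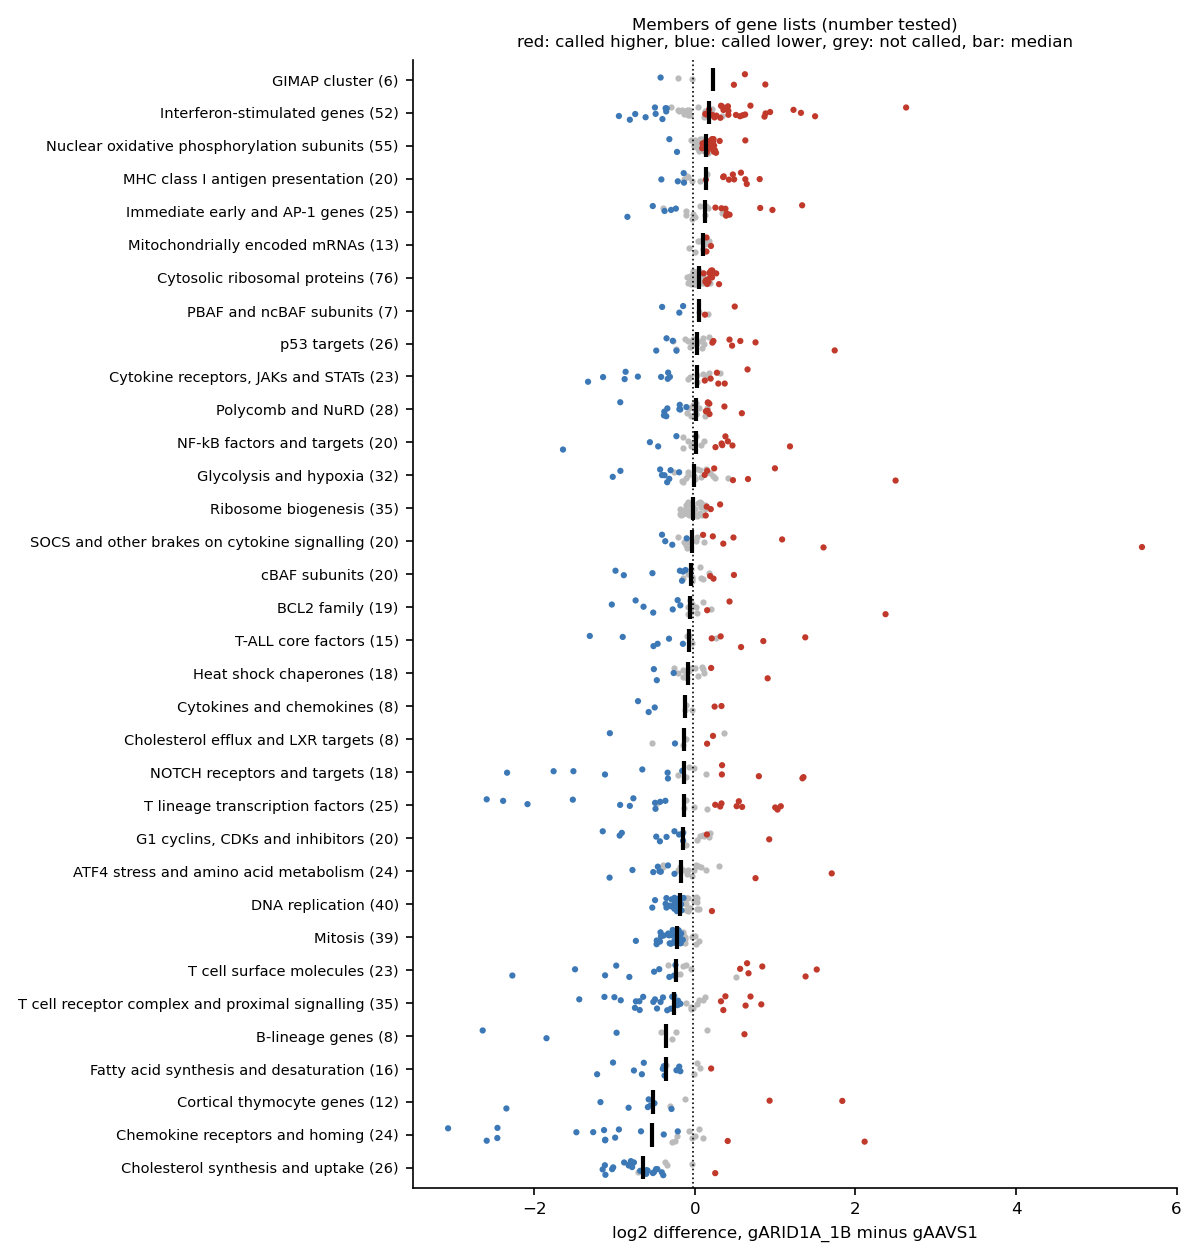
Log2 difference, gARID1A_1B minus gAAVS1, of every tested member (points) of 34 gene lists, with the number tested in brackets, the list median (black bar) and the median over all genes (dotted line). Cholesterol synthesis (-0.64), homing (-0.53) and cortical thymocyte genes (-0.52) have the lowest medians and interferon-stimulated genes (0.18) are among the highest.

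Cholesterol synthesis genes fell in 21 of 26 tested and rose in 1, with a median of -0.64. HMGCS1, which makes the substrate of HMG-CoA reductase, was at 563, 316 and 376 TPM in gAAVS1 and 195, 187 and 168 TPM in gARID1A_1B (-1.15 ± 0.26, limma adjusted p = 0.00124). MSMO1 went from 222, 147 and 162 to 80.1, 87.0 and 73.8 TPM (-1.11 ± 0.18), and INSIG1, the sterol sensor that retains SREBP, from 420.0, 275 and 315 to 162, 157 and 139 TPM (-1.12 ± 0.19). HSD17B7 fell by 1.02. In each of these genes replicate 1 of gAAVS1 was the highest library, while the 3 gARID1A_1B libraries lay close together and below all gAAVS1 libraries. Without replicate 1 of gAAVS1 the list median was -0.49. Of genes for fatty acid synthesis and desaturation 11 of 16 fell and 1 rose (median -0.36), and 5 fell without that library. ELOVL6, a fatty acid elongase, fell from 7.35, 4.33 and 5.08 to 1.89, 1.81 and 1.66 TPM (-1.22 ± 0.22) and FASN by 0.76, whereas SCD, called at -0.63, was not called without that library (-0.48, adjusted p = 0.0521). ABCA1, which exports cholesterol, fell from 2.45, 1.41 and 1.51 to 0.462, 0.261 and 0.257 TPM (-1.06 ± 0.11). Its list, of cholesterol efflux and related genes, did not fall as a group: of 8 tested, 2 rose, 2 fell and 4 were not called. The letters TCACNCCAC, a form of the sterol response element, were in 0 of 15 promoters of cholesterol genes called lower and in 1.1% of all promoters.

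Proliferation genes fell by small amounts but in large numbers. Mitosis genes fell in 29 of 39 with 0 higher (median -0.22), and DNA replication genes in 24 of 40 with 1 higher (median -0.18). Over all genes 23.1% fell and 17% rose, the shares beside which the counts below are to be read. CENPF, a kinetochore protein, fell from 128 ± 5.39 to 76.3 ± 3.40 TPM (-0.73 ± 0.07), BUB1 by 0.47, and the origin factor CDC6 by 0.53. Among G1 regulators 10 of 20 fell and 2 rose. CDK6 was at 206, 197 and 178 TPM in gAAVS1 and 90.5, 88.8 and 81.7 TPM in gARID1A_1B (-1.15 ± 0.08, limma adjusted p = 5.13e-10), CCND3 fell by 0.93 and RB1 by 0.91. CCND2, another D-type cyclin, rose from 28.0 ± 1.99 to 54.0 ± 0.603 TPM (0.93 ± 0.06). Of 26 p53 targets 7 rose and 4 fell, with the antiproliferative BTG2 at 1.74 (8.24 ± 0.492 to 30.0 ± 2.49 TPM) and the CDK inhibitor CDKN1A called lower at -0.48, a call lost without replicate 1 of gAAVS1 (-0.31). The count of 7 was 3 without replicate 2 or without replicate 3 of gAAVS1, and 4 without replicate 2 of gARID1A_1B. In the BCL2 family 7 of 19 fell and 3 rose. The anti-apoptotic genes BCL2L1 (-0.74, 78.3 ± 1.04 to 46.6 ± 0.776 TPM) and BCL2 (-0.64) fell, as did the pro-apoptotic PMAIP1 (-1.03) and BID (-0.52), beside the rise of BMF.

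Nuclear genes of oxidative phosphorylation rose in 32 of 55 and fell in 2, with a median of 0.15. Over all genes 17% rose and 23.1% fell, and the list counts that follow are to be read beside these shares. Changes were small and replicates tight: NDUFA10, of complex I, went from 21.2, 21.3 and 21.2 to 32.8, 33.3 and 34.1 TPM (0.63 ± 0.04, limma adjusted p = 3.89e-11) and UQCRFS1, the Rieske protein of complex III, from 72.9, 73.3 and 71.8 to 87.1, 86.1 and 86.9 TPM (0.25 ± 0.03). Of 13 mitochondrially encoded mRNAs 3 rose. Of 76 cytosolic ribosomal protein genes 15 rose, a share near the 17% of all genes, and 0 fell; 29 rose with mitochondrial genes left out and 32 by limma-voom. Of 32 glycolysis and hypoxia genes 7 rose and 9 fell, shares near those of all genes. GAPDH fell from 4401, 4385 and 4688 to 3536, 3629 and 3644 TPM (-0.32 ± 0.05) and ENO2 by 0.93. In the ATF4 stress list ASNS, the asparagine synthetase, rose from 16.9 ± 4.21 to 56.6 ± 3.36 TPM (1.71 ± 0.32, limma adjusted p = 0.000285), while 8 of 24 fell (4 without replicate 1 of gAAVS1) and 2 rose. RELB, a subunit of non-canonical NF-kB, rose by 1.19, and CD83 fell from 182, 156 and 162 to 55.0, 49.9 and 53.3 TPM (-1.64 ± 0.15); in that list 7 of 20 rose and 4 fell, and 2 fell by limma-voom, without replicate 3 of gARID1A_1B or without replicate 1 of gAAVS1. ATF3 rose by 1.34 and EGR2 by 0.97 among 9 of 25 immediate early genes that rose, a count of 5 at a filter of 5 TPM. JARID2, a PRC2 cofactor, fell from 38.8 ± 2.88 to 19.9 ± 1.08 TPM (-0.93 ± 0.12), and CBX8, of PRC1, rose by 0.59.

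Among called genes whose groups did not overlap, the largest gain in TPM was in TMSB4X, the actin-sequestering thymosin, at 2136, 2162 and 2064 TPM in gAAVS1 and 4277, 4436 and 4206 TPM in gARID1A_1B (1.02 ± 0.06, limma adjusted p = 2.3e-11). ACTG1, a cytoplasmic actin, rose from 1558 ± 64.0 to 1945 ± 55.7 TPM (0.32). Among the largest losses besides GAPDH were FTH1, the ferritin heavy chain, from 1674, 1755 and 1822 to 1263, 1251 and 1378 TPM (-0.43 ± 0.05), and ADA, the adenosine deaminase, from 882 ± 41.3 to 614 ± 10.7 TPM (-0.52). Since each library sums to 1e+06 TPM, such abundant genes weigh on the level of all others.

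The direct comparison with gARID1A sets cells with both guides beside cells with the ARID1A guide alone, and gAAVS1 is not part of that difference. ARID1A mRNA itself was higher in gARID1A_1B than in gARID1A by 0.28 ± 0.05 (limma, adjusted p = 0.000162). Editing of ARID1A was not measured in either group, so any difference in it and the ARID1B guide cannot be told apart. 1854 genes (10.3%) were higher in gARID1A_1B and 1895 (10.6%) lower. The split turned to 2740 and 1415 with mitochondrial genes left out, and the lower count was 1205 without replicate 3 of gARID1A_1B. Of the 153 genes up at least 2-fold against gAAVS1, 121 were also higher than in gARID1A and 2 lower, and of the 241 down at least 2-fold, 158 were lower and 1 higher; gARID1A_1B libraries are shared by those 2 comparisons. Single genes differed in where gARID1A stood. SOCS1 was at 2.60, 3.93 and 4.81 TPM in gARID1A and higher in gARID1A_1B by 4.56 ± 0.22 (limma, adjusted p = 8.34e-12). BMF was at 0.783, 0.657 and 0.484 TPM in gARID1A, below gAAVS1, and PTPN6 at 56.5, 63.1 and 66.8 TPM, with differences from gARID1A_1B of 2.69 and 1.37. CD82, a tetraspanin, was at 68.5, 77.9 and 76.7 TPM in gARID1A and 24.3, 24.4 and 24.8 TPM in gARID1A_1B (-1.56 ± 0.10, limma adjusted p = 4.87e-10). CXCR4, ITGAL and IFIT3 had moved in gARID1A already and moved further in gARID1A_1B, with CXCR4 at 66.3, 76.4 and 80.0 TPM (-1.55 in gARID1A_1B against gARID1A), ITGAL at 14.4, 14.7 and 14.0 TPM (-1.59) and IFIT3 at 3.18, 2.15 and 2.29 TPM (1.56). For 3 genes no difference was called. CD79A was at 1.10, 1.39 and 1.07 TPM in gARID1A and differed by -0.11 ± 0.15 (limma, adjusted p = 0.652), TAP2 by 0.05 ± 0.04 (limma, adjusted p = 0.465) and ABCA1 by -0.02 ± 0.11 (limma, adjusted p = 0.943).

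For some genes gARID1A was the more extreme group. TCF7 was at 1.60, 1.68 and 1.87 TPM in gARID1A and higher in gARID1A_1B by 0.39 ± 0.08 (limma, adjusted p = 0.00117). NINJ2 was at 41.2, 44.2 and 41.8 TPM in gARID1A and lower in gARID1A_1B by 0.55 (adjusted p = 0.000405), and GIMAP5, a survival GTPase of lymphocytes, was at 62.9, 55.2 and 51.0 TPM in gAAVS1, 149.9, 134 and 132 TPM in gARID1A and 90.0, 75.4 and 72.9 TPM in gARID1A_1B (-0.80 against gARID1A, adjusted p = 1.85e-05). By list, cholesterol synthesis genes were lower than in gARID1A in 19 of 26 (0 higher, median -0.61). DNA replication genes were lower in 15 of 40 (1 higher), and mitosis genes in 5 of 39 with 0 higher, the latter a share near the 10.6% of all genes. For interferon-stimulated genes the counts were 16 higher and 5 lower of 52. For genes of MHC class I antigen presentation they were 2 higher and 2 lower of 20, shares near the 10.3% and 10.6% of all genes. HMGCS1 was at 532, 319 and 283 TPM in gARID1A, again with replicate 1 highest.

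Set against gSMARCA4_A2, where both ATPases were targeted, 2510 genes (14%) were higher in gARID1A_1B and 7740 (43.2%) lower, a split that became 4672 and 4808 after median-ratio rescaling. The size of the lower excess thus moved with scaling, and single genes are given with that limit. SOCS1 was at 10.3, 9.48 and 10.9 TPM in gSMARCA4_A2, below gARID1A_1B (3.30 ± 0.22, limma adjusted p = 2.54e-10). GBP1 was at 46.7, 45.6 and 43.7 TPM (1.16 in gARID1A_1B against it), FBP1 at 1.03, 0.858 and 0.883 TPM (1.67), CD52 at 8.19, 6.32 and 9.31 TPM (1.69) and S100A4 at 0.597, 0.594 and 0.773 TPM (3.04). TAL1 was at 154, 157 and 145 TPM in gSMARCA4_A2 and lower in gARID1A_1B (-1.35 ± 0.07, limma adjusted p = 6.48e-12). DAZL, a germ-cell RNA-binding protein, was at 11.7, 10.8 and 10.3 TPM in gSMARCA4_A2, 4.70, 4.16 and 4.24 TPM in gAAVS1 and 0.311, 0.301 and 0.335 TPM in gARID1A_1B (-3.18 ± 0.07 against gSMARCA4_A2). PAGE5, of a cancer-testis family, followed the same order, at 10.4, 9.40 and 8.01, then 6.06, 4.29 and 5.65, then 0.243, 0.148 and 0.493 TPM. DNA replication genes were higher than in gSMARCA4_A2 in 39 of 40 with 0 lower (median 0.35), and mitosis genes in 27 of 39 with 0 lower. ACAT2 (adjusted p = 0.49) and CCND2 (adjusted p = 0.997) were not called different, at 0.19 ± 0.22 and 0.00 ± 0.06.

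BRM014 for 8 days has its own DMSO control, so its effect shares no library with that of the guides; time, agent and control differ. After BRM014, 36.9% of genes were called higher and 23% lower. Of the 153 genes up at least 2-fold in gARID1A_1B, 123 (80.4%) were called higher after BRM014 and 12 lower, and of the 241 down at least 2-fold, 182 (75.5%) were called lower and 20 higher. The 2 effects differed in 6872 genes, 1957 (10.9%) where that of gARID1A_1B was the higher and 4915 (27.4%) where it was the lower, and 3276 and 3584 after median-ratio rescaling. Among 3717 protein-coding genes of at least 5 TPM called in both effects, 680 had opposite signs with the difference itself called. PI16 fell in gARID1A_1B (-2.53) and rose after BRM014, from 48.2, 30.0 and 29.7 TPM in DMSO to 106, 86.5 and 94.9 TPM (1.42). DTX1 fell in gARID1A_1B (-2.34) and rose after BRM014 (0.62). DNTT rose in gARID1A_1B (0.93) and fell after BRM014 from 89.1, 48.9 and 31.6 to 6.22, 5.49 and 4.40 TPM (-3.06). S100A4, a calcium-binding protein, rose in gARID1A_1B from 1.84, 2.36 and 2.30 to 12.8, 11.8 and 13.4 TPM (2.11) and fell after BRM014 (-1.28).

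**Figure D4:**
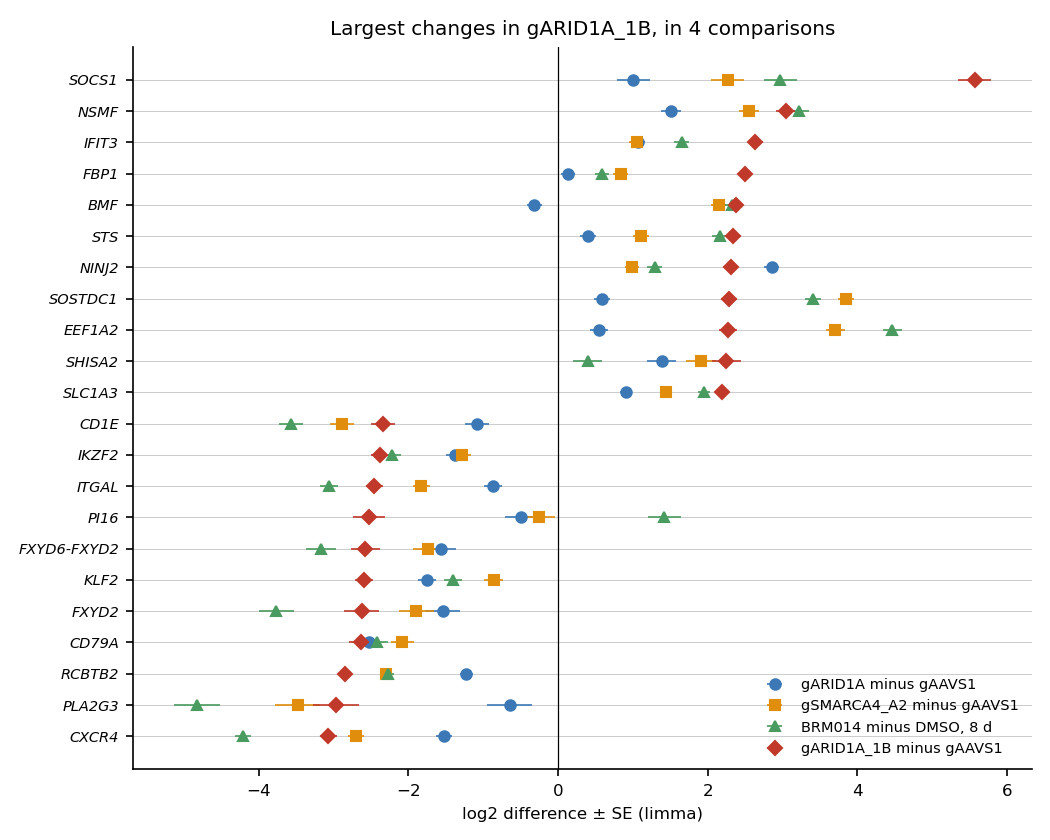
Log2 difference ± SE of the genes named for the largest rises and falls in gARID1A_1B, in 4 comparisons: gARID1A_1B, gARID1A and gSMARCA4_A2, each minus gAAVS1 and so sharing those 3 libraries, and BRM014 minus DMSO at 8 d. SOCS1 is highest in gARID1A_1B (5.57), NINJ2 in gARID1A (2.85), and PI16 lies at -2.53 in gARID1A_1B and at 1.42 after BRM014.

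Differences were also set against position along the chromosomes that the guides target, a comparison added after the data were seen. On 19q, 116 tested genes lie between PPP1R12C, which holds the control site AAVS1, and the end of the arm. Of these, 53 (45.7%) were higher in gARID1A_1B than in gAAVS1 and 7 (6.03%) lower, with a median of 0.18. In the 10 Mb on the centromere side of PPP1R12C the median was 0.03, with 44 of 259 higher and 37 lower. The median of the 116 genes, measured from the gAAVS1 mean, was 0.20, 0.20 and 0.12 in the 3 gARID1A_1B libraries and 0.14, 0.22 and 0.23 in gARID1A, and between -0.004 and 0.01 in the gAAVS1 libraries. The groups did not overlap. Against gARID1A, whose cells carried no AAVS1 guide, the median in gARID1A_1B was -0.008. Effects of gARID1A (0.18), gSMARCA4 (0.21) and gSMARCA4_A2 (0.34), each against the same gAAVS1 libraries, were above 0 as well. Their medians over the rest of the chromosome were 0.016, 0.015 and 0.14. After BRM014 the median was 0.18 distal to PPP1R12C and 0.21 over the rest of the chromosome. Zinc finger genes, clustered there, were higher in 29 of 56, and other genes in 24 of 60. The ribosomal protein gene RPL28 (0.22 ± 0.07, limma adjusted p = 0.012), not called without replicate 2 of gAAVS1, lies in that segment. RPL28 was at 149.8 ± 9.55 TPM in gAAVS1, 184 ± 12.2 TPM in gARID1A and 174 ± 2.94 TPM in gARID1A_1B (SD, n = 3).

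On 6q, 53 tested genes lie between ARID1B and the end of the arm, of which 24 (45.3%) were lower in gARID1A_1B than in gAAVS1 and 8 higher, with a median of -0.14. The medians of the 3 libraries were -0.13, -0.10 and -0.17, below those of every gAAVS1 library (-0.05 to 0.01) and every gARID1A library (-0.01 to 0.03). In the 10 Mb on the centromere side 10 of 40 were lower and 4 higher, with a median of -0.07 (-0.08 in gARID1A). Against gARID1A, 19 of the 53 were lower and 4 higher, with a median of -0.16. ACAT2, a cholesterol synthesis gene at 931, 572 and 654 TPM in gAAVS1 and 352, 348 and 333 TPM in gARID1A_1B (-1.03 ± 0.22, limma adjusted p = 0.000876), lies in that segment. On 1p, 327 tested genes lie between ARID1A and the end of the arm. Of these 93 (28.4%) were lower and 60 (18.3%) higher, near the 23.1% and 17% over all genes. The median was -0.08 in gARID1A_1B and -0.12 in gARID1A, against -0.02 in the 10 Mb on the centromere side. In the same 1p segment it was 0.10 in gSMARCA4, 0.16 in gSMARCA4_A2 and 0.21 after BRM014. Over the rest of the chromosome these 3 medians were 0.03, 0.10 and 0.04. ID3 and RUNX3, both called higher above, also lie in the 1p segment. The part of the guides' target sites in these differences was not tested.

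**Figure D5:**
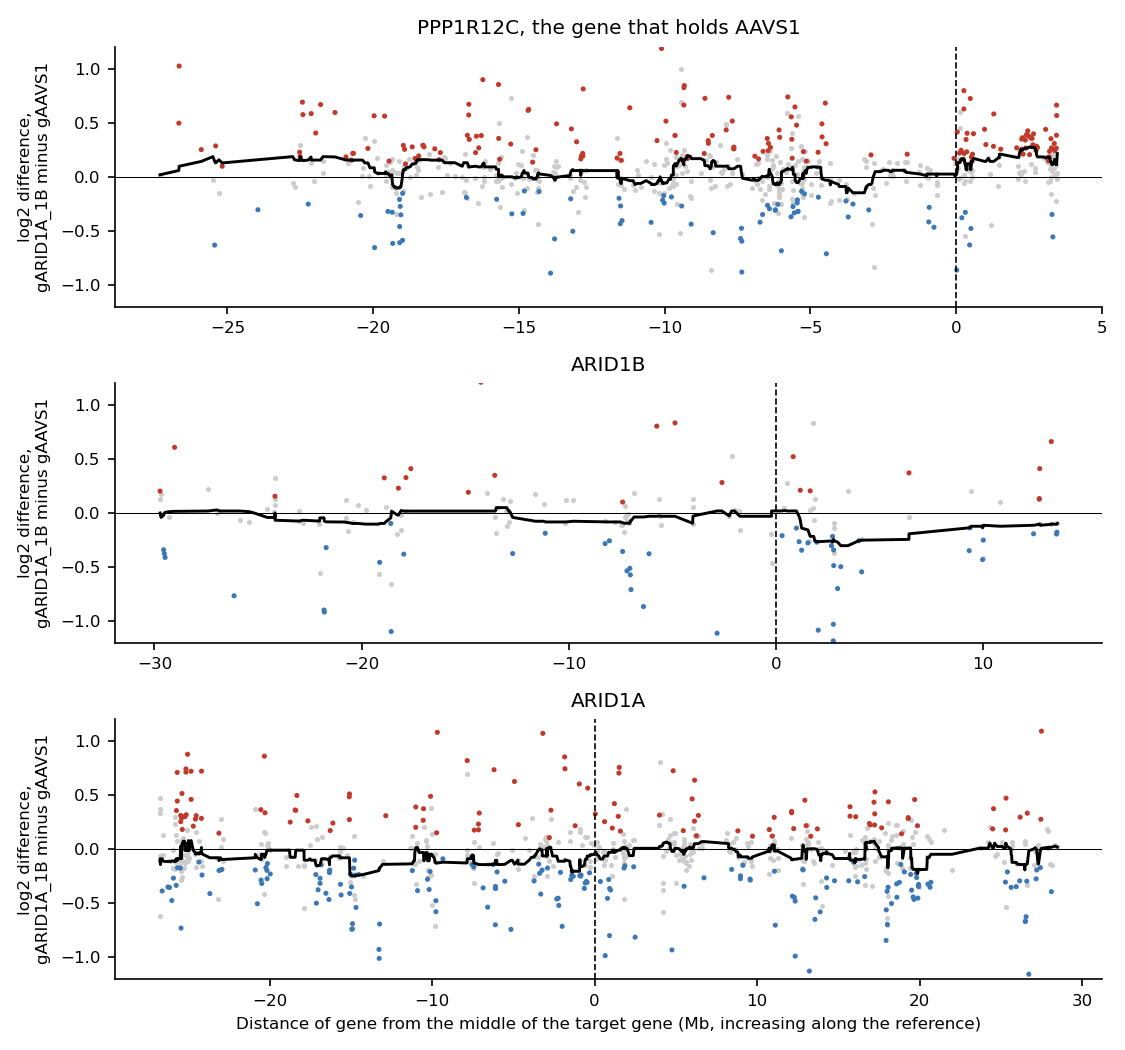
Log2 difference, gARID1A_1B minus gAAVS1, of tested genes (points, red called higher, blue called lower, grey not called) against distance from the middle of PPP1R12C, ARID1B and ARID1A (dashed line), with the running median over 25 genes (black). The end of the arm lies to the right for PPP1R12C and ARID1B and to the left for ARID1A, and genes beyond the y axis are not drawn. The running median is above 0 to the right of PPP1R12C, as it also is near the left edge of that panel, and below 0 over most of the segment to the right of ARID1B.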

How the data were processed

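The deposited table gives TPM, computed by the authors for each library and not rounded to whole numbers. Per the submitters' processing notes reads were aligned with HISAT2 2.2.1 to hg38 and counted with featureCounts 2.0.3, and DESeq2 1.38.2 is named with no role. How TPM was derived is not given in the sources used here. Per the labels' protocols the kit was not directional, so overlapping sense and antisense genes cannot be told apart.

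From the table, the 17936 of 38557 genes that reached 1 TPM in 3 or more of the 27 Jurkat libraries were fitted as log2(TPM + 1) in limma 3.58.1 (R 4.3.3). All 9 Jurkat groups entered 1 linear model (18 residual degrees of freedom, trended and robust empirical Bayes), with Benjamini-Hochberg adjustment over all genes tested. The test was checked on simulated data. TPM multiplied by gene length gave whole reads within 0.01 for 100% of values, and limma-voom on those reads was an alternative.

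Groups and replicates came from the labels. With 3 libraries per group an exact permutation test cannot go below 0.1. The members of the comparison and the gene lists were chosen with earlier results of these data known. Named were protein-coding calls whose higher group averaged 5 TPM or more, with no overlap between libraries, namely the 12 largest rises and 12 largest falls, the 6 largest gains and losses in TPM and the 6 largest differences of each sign in each other contrast, then up to 5 called members per list, genes that switched on or off, and a preset group of targets and T-ALL factors. A few genes the rule names are not reported here. Some were added after their values were seen, among them IFIT1, IRF1 and ITGA4. Promoters are RefSeq's for GRCh38.p14, of which 12165 matched a tested gene. The position comparisons were added after seeing the data. Alternatives covered the pseudocount, low-value filter, scaling, model, replicate block and each library left out.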

Additional observations from a re-analysis of the deposited data

Results flagged for a closer look

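12 genes stood out because the effect of the 2 guides and the effect of 8 days of BRM014, each called by limma, had opposite signs and the difference itself was called. They are the 6 largest differences of each sign among 680 such genes, given as log2 effects against each experiment's own controls. Of the genes that rose with the guides and fell with the inhibitor, DNTT was at 0.93 in gARID1A_1B and -3.06 after BRM014 (difference 3.99). S100A4 was at 2.11 in gARID1A_1B and -1.28 after BRM014 (difference 3.38), and GRAP2 was at 0.83 in gARID1A_1B and -2.05 after BRM014 (difference 2.88). CD52 was at 0.56 in gARID1A_1B and -2.15 after BRM014 (difference 2.71). GIMAP4 was at 0.88 in gARID1A_1B and -1.82 after BRM014 (difference 2.70), and LAX1 was at 1.14 in gARID1A_1B and -1.47 after BRM014 (difference 2.62), an adaptor of lymphocyte receptor signalling. In the other direction, GZMA was at -1.53 in gARID1A_1B and 3.34 after BRM014 (difference -4.87), a granzyme of cytotoxic cells. HBEGF was at -1.74 in gARID1A_1B and 2.29 after BRM014 (difference -4.02), an EGF receptor ligand. PI16 was at -2.53 in gARID1A_1B and 1.42 after BRM014 (difference -3.95), and DTX1 was at -2.34 in gARID1A_1B and 0.62 after BRM014 (difference -2.96). IL26 was at -2.23 in gARID1A_1B and 0.65 after BRM014 (difference -2.88), and ENPP1 was at -2.21 in gARID1A_1B and 0.54 after BRM014 (difference -2.74). Guides and inhibitor differ in agent, time and controls, and these cannot be told apart. CD52 lies on the 1p segment beyond ARID1A.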

How the results depend on the processing

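No named gene called in the fit reported changed sign in any alternative, but by limma-voom the split against gAAVS1 turned to 4151 higher and 3615 lower. Of 201 named genes over 15 alternatives each, 2892 values kept their side of the threshold, 94 lost the call and 8 gained it. A count was taken as close if its ratio to the main value stayed within a set limit. That limit was wide, since 1854 and 2740 genes higher than in gARID1A passed as close. Of counts of genes called, 128 stayed close to their main value and 4 did not. These were gARID1A_1B against gSMARCA4_A2 after median-ratio rescaling (4672 higher, 4808 lower), the difference from BRM014 after the same rescaling (3276 higher), and genes lower than in gARID1A without replicate 3 of gARID1A_1B (1205). Leaving out each library in turn gave 2382 to 2843 higher and 3238 to 3944 lower against gAAVS1, and 1241 to 1617 higher and 1205 to 1684 lower against gARID1A. The split against gARID1A turned from 1854 higher and 1895 lower to 2756 and 1851 by limma-voom and to 2740 and 1415 with mitochondrial genes left out. The cause of these shifts was not tested.

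Whether replicate numbers pair the samples is not settled, and the fit reported did not pair them. Deviations of same-numbered gARID1A_1B and gAAVS1 libraries from their group means correlated at only 0.052, 0.018 and 0.052. Each of the 3 gARID1A_1B libraries still matched the gAAVS1 library of its own number best. With the replicate number as a block, 3323 genes were called higher and 4491 lower against gAAVS1, 2275 and 2402 against gARID1A, 2726 and 8070 against gSMARCA4_A2, and 2256 and 5375 in the difference from BRM014.

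Of list counts 1070 stayed close to their main value, by the limit used for counts of genes, and 98 moved. Of list medians 506 shifted by less than the SD of that median among gARID1A_1B libraries, and 78 moved. Some medians near 0 changed sign, such as that of the brakes on cytokine signalling (0.02 by limma-voom) and of glycolysis and hypoxia genes (0.04 by limma-voom). Genes distal to PPP1R12C kept 42 to 62 higher over the alternatives, and those distal to ARID1B 19 to 25 lower. Depth limits genes near 1 TPM most in replicate 1 of gAAVS1, at 29.7 M reads.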
